A study of Rattus norvegicus with 18 samples.

Results

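The genes of the interstitial and elastic matrix were examined in cultured rat aortic rings that had been exposed to VEGF or to angiopoietin-1. The list held 36 genes, namely interstitial collagens, elastic fibre genes, proteoglycans, and adhesive and matricellular genes. A gene's measurements were the Affymetrix probe sets annotated to it and to no other gene. Of the 36 genes, 35 had such a probe set, out of 13810 genes named on the arrays, and Thbs1 was not analysed here. On the RAE230A array (array A) 33 genes had 50 probe sets and on the RAE230B array (array B) 7 genes had 8 probe sets, with 5 genes on both. A filter on low mean signal kept 44 probe sets of 32 genes on array A and 7 probe sets of 6 genes on array B. The probe sets that were not kept belonged to Col11a1, Col12a1, Ogn and Vcan on array A and to Col12a1 on array B.

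The rings were cut from the thoracic aorta of male Fisher 344 rats aged 5 weeks, 2 mm wide, and kept for 14 days without serum in EBM medium. On day 13 they stayed in medium alone (untreated), received recombinant human VEGF at 10 ng/ml, or received recombinant human angiopoietin-1 (Ang1) at 100 ng/ml together with a poly-His antibody at 5 µg/ml. The untreated and VEGF rings had no antibody, so the effects of Ang1 and of the antibody cannot be told apart. RNA was taken after 20 h per the sample labels and after 18 h per the design text. Each of the 9 RNAs, 3 per group, came from 4 to 6 pooled rings and was hybridised to both array types. Per the design text each of 3 animals supplied all 3 groups. Which replicate number belongs to which animal is not given in the labels, so the p-values measure the spread between these RNAs.

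Fibrillar collagens such as types I, III and V assemble into the cables that give the vessel wall its tensile strength. Elastin, laid down on microfibrils of fibrillin with the help of fibulins, lets the aorta recoil after each beat. Small leucine-rich proteoglycans (biglycan, decorin, lumican, fibromodulin and osteoglycin) bind collagen and bear on fibril width, and matricellular proteins such as periostin, tenascin C and SPARC modulate how cells hold on to this scaffold. Smooth muscle cells of the media and fibroblasts of the adventitia make most of it.

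The upstream sequences of some members are shown because Postn and Ogn are among the few genes with an unadjusted p under 0.05 in the comparisons that follow. Promoters of 22 member genes (23 promoters) were found in a RefSeq table on the GRCr8 assembly. Of these, 4 carried TATAAA, the core of a TATA box, within 250 bases before the annotated start: Col1a2, Ogn, Postn and Tnc. In all of them it lay on the strand of the gene, and of all 33469 promoters 8.06% had it on that strand and 12.9% on either strand. The stretches read, 5′ to 3′ on the strand of the gene, with TATAAA in capitals:
Postn (chr2:140677987-140678052, plus strand): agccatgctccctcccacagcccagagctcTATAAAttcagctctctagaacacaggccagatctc
Ogn (chr17:15259182-15259245, minus strand): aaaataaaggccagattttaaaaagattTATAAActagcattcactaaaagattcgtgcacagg
Tnc (chr5:82476304-82476369, minus strand): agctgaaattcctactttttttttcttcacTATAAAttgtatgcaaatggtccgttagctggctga
Col1a2 (chr4:33518357-33518422, plus strand): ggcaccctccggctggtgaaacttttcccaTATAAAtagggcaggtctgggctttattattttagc

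In Postn the motif began 44 bases before the annotated start, and in Col1a2, Tnc and Ogn 170, 208 and 222 bases before it. CCAAT, searched on both strands, was in the upstream 250 bases of 10 of the 22 genes and in 34.0% of all promoters. GGGCGG, on both strands, was in 11 of the 22 genes and in 30.5% of all promoters. These are matches of letters and not shown to be sites. A promoter counts for each motif it holds, whether or not the matches overlap. Among the members, 3 pairs are neighbours on their chromosome: Col6a1 and Col6a2 on chromosome 20, Dcn and Lum on chromosome 7, and Col3a1 and Col5a2 on chromosome 9.

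The values are log2(signal + 16) after quantile normalisation within an array type, and a difference of 1 is a 2-fold change on that scale. Levels of different probe sets are not compared, since probes differ in brightness. Of the 9 RNAs, 2 stood apart from the rest, untreated replicate 2 and Ang1 replicate 2. On array A the median correlation with the remaining arrays was 0.79 for the former and 0.69 for the latter, where the other 7 RNAs had 0.87 to 0.94. On array B it was 0.75 and 0.43, where the others had 0.81 to 0.87. Their Gapdh signal (3′ probe set, array A) was 64.4 and 446.9, where the other 7 had 2217.8 to 3246.8. The ratio of 3′ to 5′ actin signal on array A was 8.79 to 12.4 in the VEGF group, 1.86 to 7.70 in the untreated group and 6.18 to 8.29 in the Ang1 group. Its part in the results was not tested.

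No matrix gene passed the adjusted threshold of 0.05 in any comparison on either array type (limma, Benjamini-Hochberg over all probe sets of an array type). Among all probe sets tested, 0% passed in each of the comparisons on both array types. In whole rings a lower level can come from fewer cells of a type or from less RNA per cell, which cannot be told apart. At an unadjusted p under 0.05 (limma), 0 of 44 member probe sets on array A were counted for VEGF against untreated, where the share of all probe sets was 1.65%. For Ang1 against untreated 1 of 44 was counted, against 3.17% of all, and for VEGF against Ang1 3 of 44, against 1.99% of all. On array B 0 of 7 were counted in each comparison, where the shares of all probe sets were 0.72% for VEGF against untreated, 10.5% for Ang1 against untreated and 8.48% for VEGF against Ang1. With the replicate number as a block the counts on array A were 1, 1 and 4, where the shares of all probe sets in that fit were 3.09%, 4.36% and 4.29%. The added ones were Col14a1 after VEGF (-0.58 ± 0.26) and Col6a2 in VEGF against Ang1 (1.55 ± 0.59), with adjusted p = 1.00 and 0.87 in limma.

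Treated values that all lay on 1 side of the comparison group were about as frequent among the members as elsewhere or rarer. For VEGF against untreated on array A, 0 of 44 member probe sets were higher without overlap (3.63% of all) and 1 was lower (4.81% of all), a Col5a2 probe set. For Ang1 against untreated 0 were higher (3.57% of all) and 1 was lower (5.54% of all), an Ogn probe set. For VEGF against Ang1 1 was higher (3.77% of all), that of Postn, and 0 were lower (4.3% of all). On array B no member probe set had groups without overlap. The shares of all probe sets there, higher and then lower, were 2.53% and 3.91% for VEGF against untreated, 8.73% and 8.76% for Ang1 against untreated, and 6.01% and 9.52% for VEGF against Ang1.

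Taking the brightest kept probe set of each gene, the median difference of the 32 genes on array A was 0.06 log2 units for VEGF against untreated, with 20 genes higher and 12 lower. Over all probe sets the median was -0.01. For Ang1 against untreated the median was -0.11, with 10 genes higher and 22 lower, against -0.03 over all probe sets. For VEGF against Ang1 it was 0.04, with 17 genes higher and 15 lower, against 0.02 over all. The standard error (SE) of a gene's difference ran from 0.17 to 1.14 with a median of 0.39, so most of these differences were smaller than their error. Single RNAs set the sign of these medians: leaving out untreated replicate 2 gave -0.07 for VEGF, leaving out VEGF replicate 3 gave -0.03, and that for Ang1 was 0.06 without Ang1 replicate 2. The scaling moved them as well. With arrays centred on their median in place of quantile normalisation, the members' median for VEGF was -0.15 (11 genes higher, 21 lower), where all probe sets had -0.08. For Ang1 it was -0.49 (1 higher, 31 lower), where all probe sets had -0.23, and for VEGF against Ang1 0.29 (26 higher, 6 lower), where all had 0.15.

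**Figure D1:**
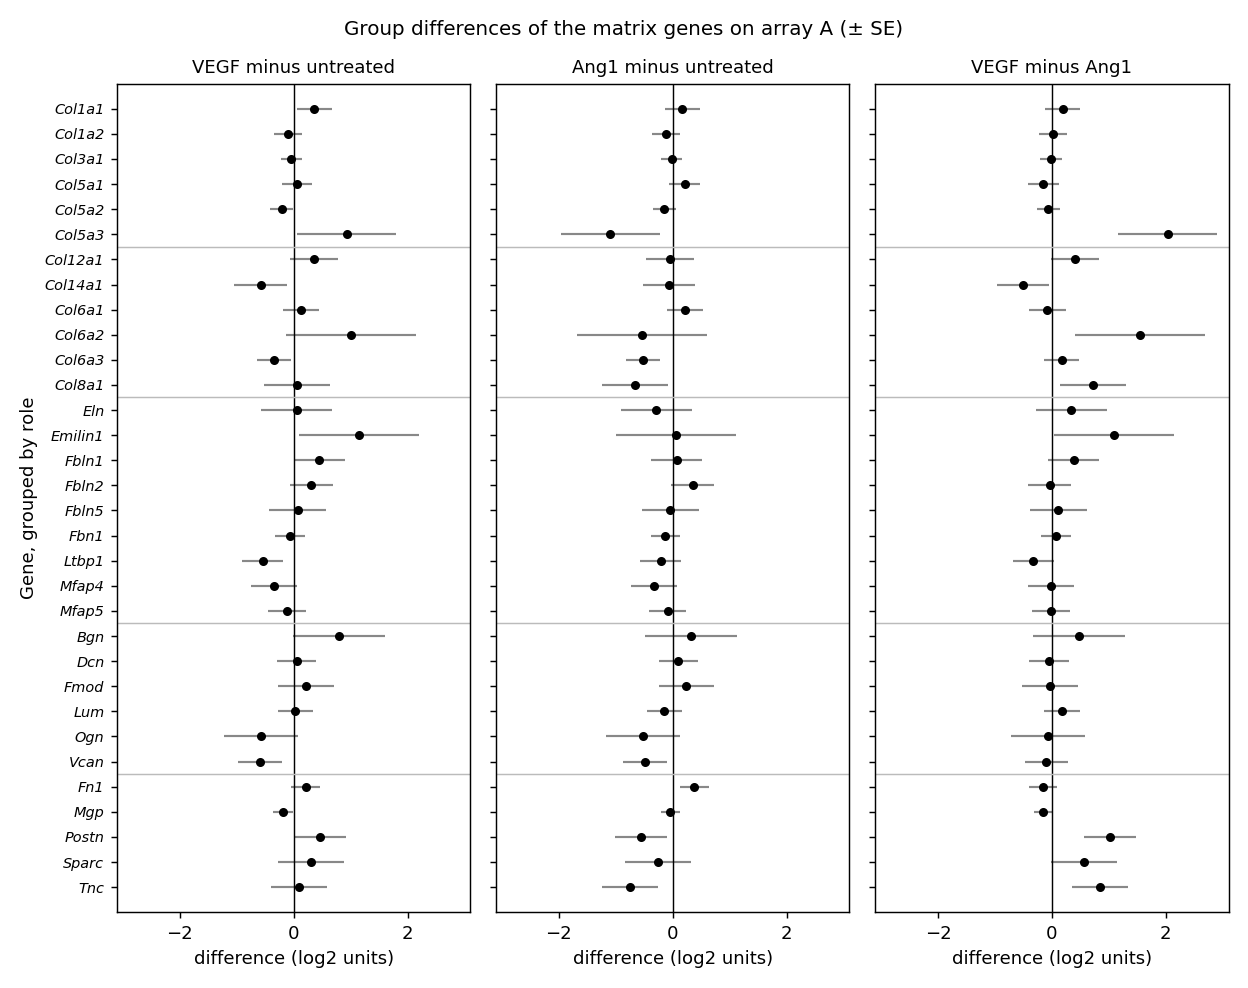
Difference between groups for each of 32 matrix genes on array A (horizontal axis, log2 units; point, limma estimate; bar, SE; 3 RNAs per group), in panels for VEGF minus untreated, Ang1 minus untreated and VEGF minus Ang1. Most bars cross 0, and the widest belong to Col6a2, Emilin1, Col5a3 and Bgn.

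The mean deviation of the 32 genes from their own means over the 9 RNAs gives each RNA a summed matrix level. It was 0.14, -0.29 and 0.20 in untreated replicates 1, 2 and 3, 0.04, -0.65 and 0.19 after Ang1, and 0.05, 0.18 and 0.14 after VEGF. The 2 RNAs below 0 were those that stood apart, and the other 7 lay within 0.04 and 0.20. With median centring Ang1 replicate 2 was at -1.07 and untreated replicate 2 at 0.04, inside the range of the others. The group means were 0.02 ± 0.27, -0.14 ± 0.45 and 0.12 ± 0.07 (SD, n = 3), closer to each other than the pooled SD of 0.30. With median centring they were 0.21 ± 0.18, -0.32 ± 0.66 and 0.10 ± 0.06, and the Ang1 mean lay further from each of the others than the pooled SD of 0.40. On array B the 6 genes gave -0.14, -0.14 and 0.45 in untreated rings, -0.10, -0.10 and 0.17 after Ang1, and -0.11, -0.23 and 0.20 after VEGF, with the third replicate highest in each group.

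**Figure D2:**
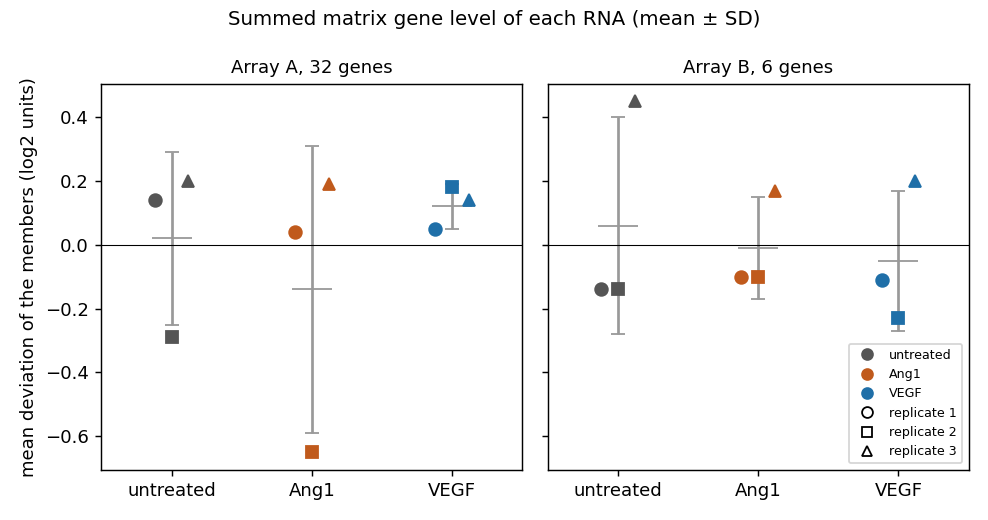
Mean deviation of the matrix genes from their 9-RNA means (vertical axis, log2 units) in each RNA by group, on array A (32 genes) and array B (6 genes); symbols mark the replicate number, grey bars the mean ± SD of 3 RNAs. On array A untreated replicate 2 (-0.29) and Ang1 replicate 2 (-0.65) lie below the other RNAs, whose values overlap between groups.

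No fibrillar collagen passed the test in any comparison. The spread of the brightest genes depended on the scaling. Quantile normalisation gives every array the same top values, and in the 100 probe sets of array A with a mean of 12 or more the median SD within groups was 0.26 with it and 0.45 with median centring. Col3a1, the chain of collagen III, measured 12.99, 13.18 and 12.83 in untreated rings, 12.87, 13.29 and 12.80 after Ang1, and 12.85, 13.10 and 12.94 after VEGF. The 3 groups overlapped fully, and the differences were -0.02 ± 0.19 (SE) for Ang1 and -0.04 ± 0.19 for VEGF. The 95% interval of the VEGF difference was -0.47 to 0.39. With median centring that difference was -0.36 ± 0.43 with an interval of -1.30 to 0.59, so its limit depends on the scaling. Col1a2, the second chain of collagen I, measured 13.01, 12.94 and 13.15 in untreated rings, 13.12, 12.33 and 13.29 after Ang1, and 13.02, 12.95 and 12.83 after VEGF. Its lowest value was that of Ang1 replicate 2, and the differences were -0.12 ± 0.24 and -0.10 ± 0.24. Col1a1, the main chain of collagen I, measured 12.58, 12.31 and 12.12 in untreated rings, 12.73, 11.81 and 12.96 after Ang1, and 12.83, 12.97 and 12.26 after VEGF. Its VEGF values overlapped the untreated ones, and the difference of 0.36 ± 0.31 had an interval of -0.34 to 1.05. It was -0.06 ± 0.37 with median centring. A second, dimmer Col1a1 probe set measured 9.59, 9.11 and 10.22 in untreated rings, 9.12, 8.55 and 9.96 after Ang1, and 8.83, 9.43 and 10.89 after VEGF, with differences of 0.08 ± 0.54 for VEGF and -0.43 ± 0.54 for Ang1.

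Collagen V chains sit inside the collagen I fibril and set its width. Col5a2 measured 12.23, 12.45 and 12.20 in untreated rings and 12.16, 12.13 and 11.97 after VEGF. All VEGF values were below the untreated ones, but the difference of -0.21 ± 0.20 (adjusted p = 1.00, limma) was about as large as its error, and a second Col5a2 probe set gave -0.10 ± 0.25 with overlapping groups. After Ang1 it measured 12.13, 12.36 and 11.94, a difference of -0.15 ± 0.20. Col5a1 differed by 0.06 ± 0.27 after VEGF and 0.21 ± 0.27 after Ang1. Its second probe set measured 6.98 in untreated replicate 2, 7.75 in Ang1 replicate 2 and 8.55 to 9.34 in the other 7 RNAs, and differed by 0.60 ± 0.54 and 0.19 ± 0.54.

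Col5a3, the least common chain of collagen V, had the largest spread of the fibrillar collagens. It measured 8.48, 6.05 and 8.14 in untreated rings, 6.52, 4.53 and 8.32 after Ang1, and 8.20, 8.18 and 9.07 after VEGF. The lowest values were those of Ang1 replicate 2 and untreated replicate 2, and Ang1 replicate 1 was low as well. The difference was 0.93 ± 0.87 for VEGF, -1.10 ± 0.87 for Ang1, and 2.03 ± 0.87 for VEGF against Ang1 (adjusted p = 0.972, limma). Its unadjusted p was under 0.05. Without Ang1 replicate 2 the last difference was 1.10 ± 0.75, and without both RNAs that stood apart 1.11 ± 0.50. With the replicate block and all RNAs it was 2.03 ± 0.54 (adjusted p = 0.87, limma).

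Over the 6 fibrillar collagens kept on array A, the median difference was 0.01 for VEGF (3 genes higher, 3 lower) and -0.07 for Ang1 (2 higher, 4 lower). The SD within groups of the brightest probe sets was 0.15 for Col5a2, 0.20 for Col3a1, 0.24 for Col5a1, 0.31 for Col1a2, 0.43 for Col1a1 and 1.37 for Col5a3. With median centring these were 0.25, 0.60, 0.28, 0.30, 0.45 and 1.40, so that Col3a1 no longer had a small spread. The second probe sets of Col1a1 and Col5a1 had SDs of 0.80 and 0.79 after quantile normalisation, and the median of all kept probe sets was 0.44.

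**Figure D3:**
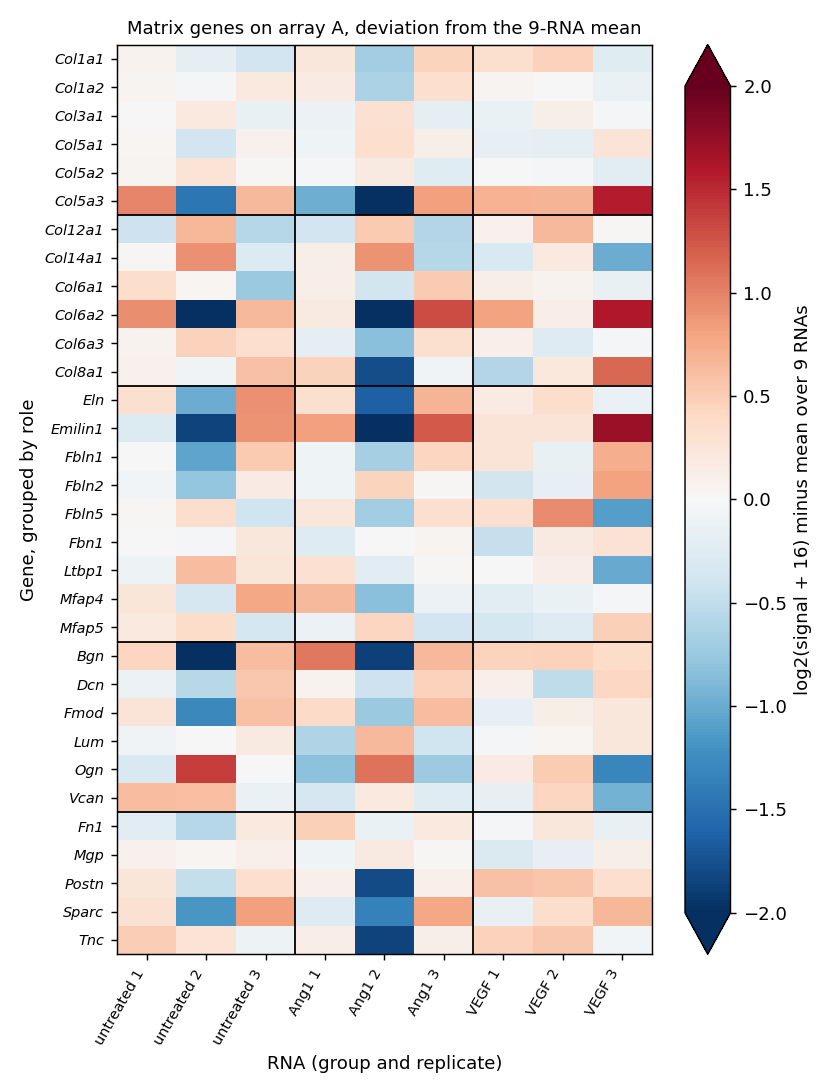
Log2(signal + 16) of 32 matrix genes (rows, grouped by role from fibrillar collagens at the top to adhesive and matricellular genes at the bottom) in the 9 RNAs (columns), as deviation from the gene's mean over the RNAs; red is above and blue below the mean, with colours saturating at 2 log2 units. The columns of untreated replicate 2 and Ang1 replicate 2 hold most of the dark cells, and the rows of Col3a1, Col5a2 and Mgp, among the brightest genes, are pale on this quantile-normalised scale.

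The other interstitial collagens form beaded microfibrils (type VI), a short-chain network around vascular cells (type VIII) or decorate fibrils (types XII and XIV). Col6a1 measured from 11.16 to 12.43 over the 9 RNAs, and its neighbour Col6a2, whose product pairs with it in collagen VI, from 4.62 to 9.80. Col6a2 measured 9.12, 6.14 and 8.84 in untreated rings, 8.37, 4.62 and 9.50 after Ang1, and 9.00, 8.33 and 9.80 after VEGF. The low values were again those of untreated replicate 2 and Ang1 replicate 2, so the difference of 1.01 ± 1.14 for VEGF, a 2.01-fold change, did not exceed its error. Without these 2 RNAs it was 0.06 ± 0.46. Col6a3 differed by -0.35 ± 0.30 after VEGF and -0.52 ± 0.30 after Ang1.

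Col8a1 measured 8.99, 8.83 and 9.49 in untreated rings, 9.36, 7.13 and 8.83 after Ang1, and 8.32, 9.12 and 10.05 after VEGF. The Ang1 difference of -0.66 ± 0.58 came down to -0.14 ± 0.50 without the 2 RNAs that stood apart. Col14a1 measured 9.32, 10.21 and 9.02 in untreated rings, 9.41, 10.19 and 8.73 after Ang1, and 8.99, 9.50 and 8.31 after VEGF. Its highest values were in the replicate 2 RNAs of each group, and the VEGF difference was -0.58 ± 0.46. Between same-numbered RNAs it was -0.33, -0.71 and -0.71, and with the replicate block -0.58 ± 0.26. A second Col14a1 probe set gave -0.51 ± 0.36, and -0.51 ± 0.27 with the block.

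Col12a1 measured 8.36, 9.44 and 8.20 in untreated rings, 8.38, 9.30 and 8.18 after Ang1, and 8.85, 9.42 and 8.79 after VEGF. Over all 9 RNAs the VEGF difference was 0.35 ± 0.42. Replicate 2 was high in every group. Leaving out untreated replicate 2 and Ang1 replicate 2 kept the high VEGF replicate 2. In that fit all VEGF values lay above the remaining ones and the difference was 0.75 ± 0.29 (adjusted p = 1.00, limma). Within same-numbered RNAs the VEGF minus untreated differences were 0.49, -0.03 and 0.59. Over the 6 genes the median difference was 0.09 for VEGF (4 higher, 2 lower) and -0.30 for Ang1 (1 higher, 5 lower), and without the 2 RNAs it was -0.01 and -0.08.

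No elastic fibre gene passed the test in any comparison. Eln, the gene of elastin itself, measured 8.45, 7.13 and 9.03 in untreated rings, 8.45, 6.49 and 8.80 after Ang1, and 8.29, 8.48 and 7.99 after VEGF. The groups overlapped, with differences of 0.05 ± 0.62 for VEGF and -0.29 ± 0.62 for Ang1. The interval for VEGF, -1.31 to 1.41, leaves room for a change of more than 2-fold in either direction. Fbn1, which encodes the microfibril protein fibrillin-1, measured 11.07, 11.05 and 11.30 in untreated rings, 10.83, 11.09 and 11.13 after Ang1, and 10.62, 11.26 and 11.37 after VEGF. Its differences were -0.06 ± 0.26 and -0.13 ± 0.26.

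Emilin1, which encodes a glycoprotein at the surface of elastic fibres, had the largest positive VEGF difference of the members. It measured 8.21, 6.63 and 9.38 in untreated rings, 9.29, 5.40 and 9.70 after Ang1, and 8.73, 8.74 and 10.21 after VEGF. The VEGF values overlapped the untreated ones, and the difference of 1.15 ± 1.05, a 2.22-fold change, was 0.43 ± 0.50 without the 2 RNAs that stood apart. Fbln2, a fibulin gene, measured 9.21, 8.50 and 9.44 in untreated rings, 9.18, 9.72 and 9.30 after Ang1, and 8.91, 9.11 and 10.07 after VEGF. Its Ang1 difference was 0.35 ± 0.38, with the highest Ang1 value in replicate 2, and -0.08 ± 0.39 without the 2 RNAs.

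Ltbp1, whose product tethers latent TGF-beta to the matrix, differed by -0.54 ± 0.36 after VEGF, with VEGF replicate 3 at 7.70 and the other 8 RNAs at 8.50 or above. Fbln5, needed for elastic fibre assembly, was also lowest in VEGF replicate 3, at 8.90, and differed by 0.07 ± 0.50. Fbln1 differed by 0.45 ± 0.45 after VEGF and 0.07 ± 0.45 after Ang1. The microfibril-associated genes Mfap4 and Mfap5 differed by -0.35 ± 0.40 and -0.12 ± 0.33 after VEGF and by -0.33 ± 0.40 and -0.09 ± 0.33 after Ang1. Over the 9 kept elastic fibre genes the median difference was 0.05 for VEGF (5 higher, 4 lower) and -0.09 for Ang1 (3 higher, 6 lower).

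Among the proteoglycans Bgn showed the clearest mark of the 2 RNAs that stood apart. Bgn, the gene of biglycan, measured 12.37, 9.77 and 12.55 in untreated rings, 12.99, 10.07 and 12.59 after Ang1, and 12.38, 12.40 and 12.30 after VEGF. Untreated replicate 2 and Ang1 replicate 2 differed from the lowest of the other 7 by -2.53 and -2.23 log2 units. The differences of 0.80 ± 0.81 for VEGF and 0.32 ± 0.81 for Ang1 became -0.09 ± 0.16 and 0.28 ± 0.18 without them. Dcn, the gene of decorin, measured 12.07, 11.62 and 12.72 in untreated rings, 12.26, 11.77 and 12.65 after Ang1, and 12.28, 11.67 and 12.60 after VEGF. Its groups overlapped almost entirely, and the differences were 0.05 ± 0.35 and 0.10 ± 0.35.

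Lum, the gene of lumican, measured 11.73, 11.79 and 11.98 in untreated rings, 11.20, 12.45 and 11.40 after Ang1, and 11.75, 11.83 and 12.02 after VEGF. Ang1 replicates 1 and 3 were the lowest of the 9 and Ang1 replicate 2 the highest. The Ang1 difference was -0.15 ± 0.31 over all RNAs and -0.51 ± 0.20 without the 2 RNAs (adjusted p = 0.999, limma). Fmod, the gene of fibromodulin, differed by 0.21 ± 0.49 after VEGF and 0.24 ± 0.49 after Ang1.

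Vcan, the gene of the large proteoglycan versican, measured 10.60, 10.59 and 9.85 in untreated rings, 9.65, 10.18 and 9.75 after Ang1, and 9.82, 10.41 and 9.04 after VEGF. The lowest value was that of VEGF replicate 3, the groups overlapped, and the differences were -0.59 ± 0.38 for VEGF and -0.49 ± 0.38 for Ang1. The other 2 kept Vcan probe sets gave -0.02 ± 0.48 and -0.17 ± 0.30 for VEGF.

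Ogn, the gene of osteoglycin, had the smallest p of the members in the comparisons with untreated rings, and in only 1 of its 3 kept probe sets. The second brightest of them measured 7.84, 7.99 and 7.85 in untreated rings, 6.44, 6.70 and 6.63 after Ang1, and 8.22, 8.06 and 6.51 after VEGF. Every Ang1 value lay more than 1 log2 unit below the untreated ones, and VEGF replicate 3 was as low as the Ang1 RNAs. These low values lay near 6.52, the mean level below which probe sets of array A were not kept. The Ang1 difference was -1.30 ± 0.41 with an interval of -2.22 to -0.39 (adjusted p = 0.953, limma), and -1.37 ± 0.50 without the 2 RNAs that stood apart. The VEGF difference was -0.29 ± 0.41, and VEGF against Ang1 gave 1.01 ± 0.41 (adjusted p = 0.972, limma), which was 1.56 ± 0.28 without VEGF replicate 3.

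The brightest Ogn probe set measured 8.31, 10.00 and 8.62 in untreated rings, 7.79, 9.70 and 7.88 after Ang1, and 8.77, 9.12 and 7.30 after VEGF. In it the replicate 2 RNAs of each group were the highest, and the Ang1 difference was -0.52 ± 0.65. The dimmest kept probe set measured 6.76, 7.37 and 7.33, then 6.17, 6.51 and 6.77, then 7.05, 6.59 and 5.01, with an Ang1 difference of -0.67 ± 0.48. In these 2 probe sets the groups overlapped. Within same-numbered RNAs both were lower after Ang1 in 3 of 3 pairs. The differences were -0.53, -0.29 and -0.74 in the brightest and -0.59, -0.86 and -0.57 in the dimmest. This was not particular to Ogn. Probe sets of Postn, Col5a2, Col6a3 and Vcan, among others, were also lower after Ang1 in 3 of 3 pairs. The share over all probe sets was not computed. With the replicate block the Ang1 differences of these 2 Ogn probe sets were -0.52 ± 0.38 and -0.67 ± 0.49 (adjusted p = 0.845 for each, limma). The Ogn probe set that was too dim to be kept measured 6.43, 6.94 and 7.45 in untreated rings and 6.05, 5.85 and 6.03 after Ang1. After VEGF it measured 6.98, 6.63 and 5.79. Its Ang1 values all lay below the untreated ones. Over the 6 proteoglycan genes the median difference was 0.04 for VEGF (4 higher, 2 lower) and -0.03 for Ang1 (3 higher, 3 lower).

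**Figure D4:**
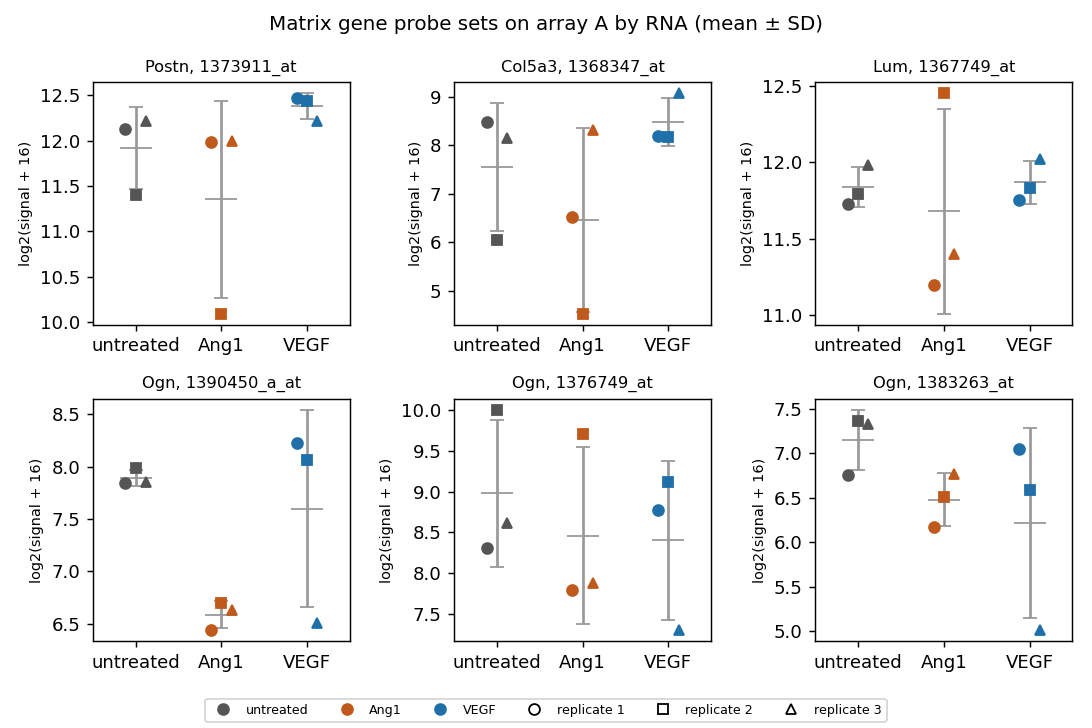
Log2(signal + 16) on array A in each RNA by group for the probe sets of Postn, Col5a3 and Lum (top row) and the 3 kept probe sets of Ogn (bottom row); symbols mark the replicate number, grey bars the mean ± SD of 3 RNAs. In the second brightest Ogn probe set (bottom left) the Ang1 values (6.44 to 6.70) lie below the untreated ones (7.84 to 7.99), and in the brightest (bottom middle) and the dimmest (bottom right) the groups overlap.

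Of the adhesive and matricellular genes, Fn1, the gene of fibronectin, measured 12.28, 11.91 and 12.68 in untreated rings, 12.97, 12.35 and 12.68 after Ang1, and 12.47, 12.71 and 12.34 after VEGF. Its groups overlapped, with differences of 0.38 ± 0.25 for Ang1 (interval -0.18 to 0.93) and 0.21 ± 0.25 for VEGF. The Ang1 difference was the largest positive one of the members on array A. Tnc, the gene of tenascin C, measured 8.82, 8.60 and 8.22 in untreated rings, 8.46, 6.48 and 8.44 after Ang1, and 8.79, 8.87 and 8.27 after VEGF. Its Ang1 difference of -0.75 ± 0.49 rested on replicate 2 and was -0.07 ± 0.34 without the 2 RNAs that stood apart.

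Postn, the gene of periostin, measured 12.13, 11.40 and 12.22 in untreated rings, 11.98, 10.09 and 11.99 after Ang1, and 12.47, 12.44 and 12.22 after VEGF. All VEGF values were above all Ang1 values, by a mean of 1.02 ± 0.46 (adjusted p = 0.972, limma). Without Ang1 replicate 2 the difference was 0.34 ± 0.25, and without both RNAs that stood apart 0.34 ± 0.16. Against untreated rings Postn differed by 0.46 ± 0.46 after VEGF and -0.56 ± 0.46 after Ang1.

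Sparc, which encodes a collagen-binding matricellular protein, differed by 0.30 ± 0.58 after VEGF and -0.26 ± 0.58 after Ang1. Without the 2 RNAs that stood apart these were -0.25 ± 0.31 and -0.27 ± 0.34. A second, dimmer Sparc probe set gave the other signs over all RNAs, -0.04 ± 0.34 and 0.16 ± 0.34. Mgp, whose product keeps the arterial wall from calcifying, measured 12.88 to 13.35 over the 9 RNAs, and its differences were -0.19 ± 0.17 for VEGF and -0.04 ± 0.17 for Ang1. Its SD within groups was 0.14 at the top of the quantile-normalised scale and 0.59 with median centring, where the differences were -0.46 ± 0.42 and -0.17 ± 0.42. Over the 5 kept genes of this group the median difference was 0.21 for VEGF (4 higher, 1 lower) and -0.26 for Ang1 (1 higher, 4 lower). Without the 2 RNAs these medians were 0.02 and -0.12.

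On array B 6 members were kept, with median differences of -0.05 for VEGF, -0.13 for Ang1 and -0.01 for VEGF against Ang1, where all probe sets had -0.01, -0.01 and 0.04. Thbs2, a thrombospondin gene, measured 9.53, 9.82 and 10.20 in untreated rings, 9.96, 8.79 and 9.54 after Ang1, and 9.74, 9.69 and 9.95 after VEGF, and its groups overlapped. Its differences were -0.06 ± 0.36 and -0.42 ± 0.36. Efemp2, the gene of fibulin-4, which helps to crosslink elastin, measured 11.81, 10.87 and 12.37 in untreated rings, 12.02, 11.11 and 11.84 after Ang1, and 11.77, 11.41 and 12.13 after VEGF. Its lowest values were those of the 2 RNAs that stood apart, and the differences were 0.09 ± 0.41 and -0.02 ± 0.41. Col11a1, a fibrillar collagen known from cartilage, differed by -0.42 ± 0.36 and -0.49 ± 0.36.

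The genes measured on both array types did not always behave alike. Eln on array B measured 8.90, 8.96 and 9.94 in untreated rings, 8.29, 10.98 and 10.24 after Ang1, and 8.61, 9.44 and 9.62 after VEGF. Ang1 replicate 2 was the highest RNA there and the lowest on array A. The Ang1 difference was 0.57 ± 0.63 on array B against -0.29 ± 0.62 on array A, both within their errors. Fbln1 differed by 0.12 ± 0.38 after VEGF on array B and 0.45 ± 0.45 on array A, and Col6a3 by -0.32 ± 0.32 and -0.35 ± 0.30.

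Of the members, 10 had several kept probe sets on array A, 22 in all, and some of these disagreed on single RNAs. The second Fbn1 probe set ran from 6.63 to 9.75, lowest in Ang1 replicate 2, whereas the brightest ran from 10.62 to 11.37. The second Col6a2 probe set gave 7.92 in Ang1 replicate 2 and 6.34 in untreated replicate 2, so that Ang1 replicate 2 was not low in it, unlike in the brightest one. The second Sparc probe set had Ang1 replicate 2 at 10.62, inside the range of the others, and untreated replicate 2 at 9.80, below it. The Col1a2 probe sets differed by -0.12 ± 0.24 and -0.04 ± 0.18 after Ang1.

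In the 2 RNAs that stood apart, matrix genes were lowest more often than other probe sets. Both lay below the other 7 RNAs in 10 of 32 members on array A, which is 31.2%, where 15.6% of all kept probe sets did. Counting every kept member probe set, it was 12 of 44, or 27.3%. Low means in these RNAs were not particular to the members. On array A collagen processing and crosslinking genes, a list described below, had mean deviations of -0.56 and -0.60, and fibroblast markers 0.08 and -0.11. With median centring the members' share was again 31.2% and that of all 17.9%. The 10 genes after quantile normalisation were Col5a3, Col6a2, Eln, Emilin1, Fbln1, Mfap4, Bgn, Fmod, Postn and Sparc. Both lay above the other 7 in 4 members, Col3a1, Col5a2, Col14a1 and Ogn, which is 12.5% against 14.1% of all. On array B both were lowest in 1 of 6 members, Efemp2, against 10.3% of all, and highest in 0 of 6, against 7.11% of all. These RNAs were noticed for standing apart and not labelled so, and the shares are descriptions with no test.

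**Figure D5:**
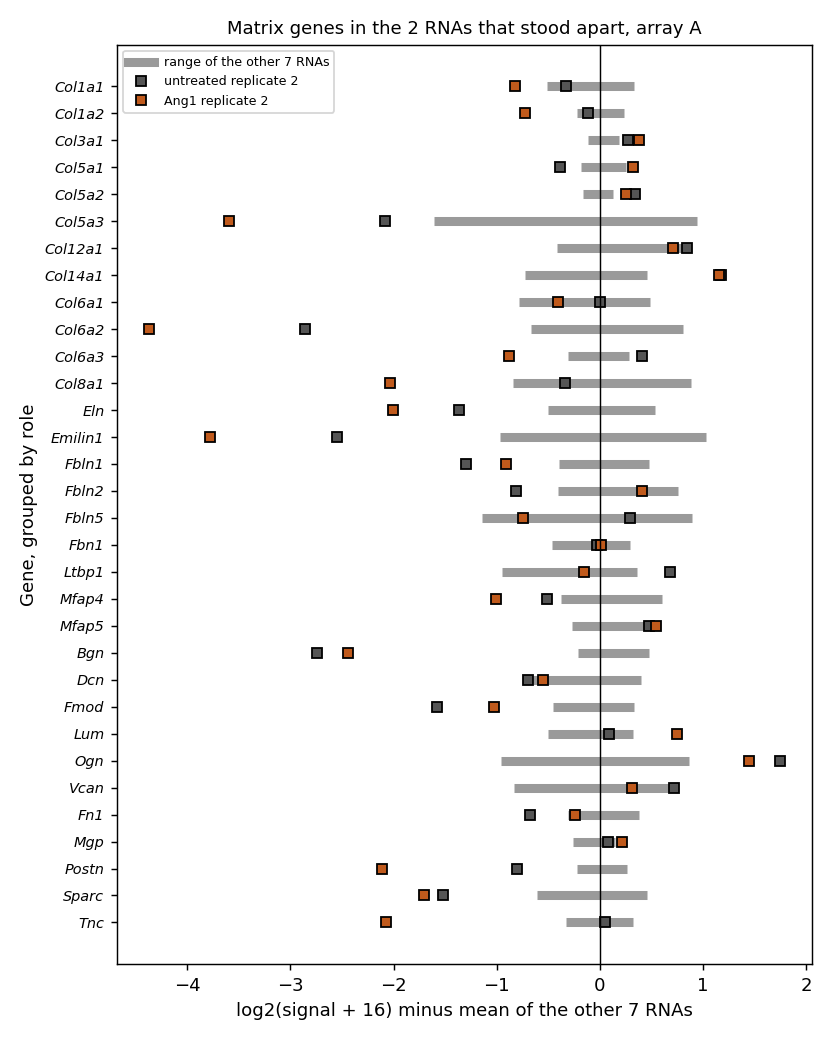
Log2(signal + 16) of 32 matrix genes on array A in untreated replicate 2 and Ang1 replicate 2 (squares), relative to the mean of the other 7 RNAs at 0; grey bars span those 7 RNAs. Both squares lie left of the bar in 10 genes, farthest in Col6a2, Emilin1, Col5a3 and Bgn, and right of it in 4 genes.

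Without these 2 RNAs the median differences on array A were -0.08 for VEGF (15 genes higher, 17 lower), -0.09 for Ang1 (10 higher, 22 lower) and -0.01 for VEGF against Ang1 (16 higher, 16 lower). The median SE fell from 0.39 to 0.29 for VEGF and 0.32 for Ang1. On array B they were -0.23 for VEGF (0 higher, 6 lower), -0.14 for Ang1 (1 higher, 5 lower) and -0.10 (2 higher, 4 lower). No member passed the adjusted threshold in that fit either. At an unadjusted p under 0.05, among the brightest probe sets, were Col12a1 for VEGF, Lum for Ang1, and Col12a1 (0.75 ± 0.29) and Lum (0.52 ± 0.19) for VEGF against Ang1. These are 1, 1 and 2 of 32 genes, and in the same fit 3.18%, 3.11% and 3.35% of all probe sets were counted. Col12a1 was high in replicate 2 of every group, and only that of VEGF stayed in this fit.

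Genes that work beside the members were read from 3 further lists, in which no gene passed the adjusted threshold. The genes named from them had an unadjusted p under 0.05 in limma, at most 5 a list, apart from Serpinh1, which was chosen after its values were seen. Of 45 other interstitial matrix genes 24 were kept on array A, with a median difference of 0.08 for VEGF (14 higher, 10 lower) and 0.10 for Ang1 (13 higher, 11 lower). On array B 8 were kept. Aspn, the gene of asporin, measured 7.26, 8.85 and 7.46 there in untreated rings, 7.06, 6.17 and 6.27 after Ang1, and 8.44, 7.95 and 7.16 after VEGF. All Ang1 values were below the others, with an Ang1 difference of -1.36 ± 0.49 (adjusted p = 0.466, limma) and a VEGF minus Ang1 difference of 1.35 ± 0.49. The Ang1 values 6.17 and 6.27 lay below 6.71, the mean level below which probe sets of array B were not kept. On array B 10.5% of all probe sets had an unadjusted p under 0.05 (limma) for Ang1 against untreated. For VEGF against Ang1 it was 8.48%. On array A another Aspn probe set gave -0.35 ± 0.44 for Ang1. Podn, a small leucine-rich proteoglycan gene, differed by 1.02 ± 0.42 after Ang1 (adjusted p = 0.466) and Col16a1, a fibril-associated collagen gene, by -0.75 ± 0.30 in VEGF minus Ang1 (adjusted p = 0.561), both on array B in limma. Podn measured 10.39, 8.73 and 9.89 in untreated rings and 10.28, 11.08 and 10.71 after Ang1, with overlap. Its lowest and highest values were those of the 2 RNAs that stood apart.

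Collagen processing and crosslinking genes numbered 26, of which 17 were kept on array A. Their median difference was 0.15 for VEGF (11 higher, 6 lower) and 0.10 for Ang1 (11 higher, 6 lower). Loxl2, which encodes a lysyl oxidase that crosslinks collagen, was measured on array B at 8.72, 8.60 and 8.55 in untreated rings, 7.57, 7.59 and 6.87 after Ang1, and 7.83, 8.15 and 8.36 after VEGF. Both treated groups lay below the untreated one, Ang1 by -1.28 ± 0.31 (adjusted p = 0.466, limma) and VEGF by -0.51 ± 0.31. Crtap, a collagen prolyl hydroxylation partner, measured 6.71, 6.71 and 5.18 in untreated rings and 7.35, 8.62 and 6.95 after Ang1, without overlap, and differed by 1.44 ± 0.50 after Ang1 on array A (adjusted p = 0.953, limma). The chaperone gene Serpinh1, whose product folds collagen, measured 5.57 in untreated replicate 2 and 5.95 in Ang1 replicate 2 and 10.22 to 11.20 in the other 7 RNAs. The mean deviation of the 17 genes was -0.56 and -0.60 in these RNAs, but not every gene was low in them. Lox, Plod2, P4ha1 and P3h3 were highest in untreated replicate 2, at 11.30, 11.06, 10.72 and 10.54, and Crtap in Ang1 replicate 2.

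TGF-beta signalling genes, of which 21 of 25 were kept on array A, had a median difference of -0.12 for VEGF (9 higher, 12 lower) and -0.09 for Ang1 (8 higher, 13 lower). Smad2, a signal carrier of the pathway, measured 8.49, 8.38 and 8.29 in untreated rings, 7.98, 7.13 and 7.75 after Ang1, and 8.44, 8.14 and 7.99 after VEGF. All Ang1 values lay below the untreated ones, by -0.77 ± 0.30 (adjusted p = 0.953, limma).

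Markers of the cells that make matrix were read beside it. Smooth muscle markers, 10 of 12 kept on array A, were present, among them Myh11 at 9.71 to 11.77 and Tagln at 6.63 to 11.49. Their mean deviation was 0.33, -0.62 and 0.63 in untreated rings, 0.24, -0.45 and 0.03 after Ang1, and -0.23, 0.13 and -0.05 after VEGF. On this mean the 2 RNAs that stood apart had the lowest values, but not every marker was low in them. Tagln, Smtn and Acta2 were lowest in these 2 RNAs, whereas Cnn1 (7.99 and 8.15) and Cald1 (11.35 and 11.43) were highest in them. On array B the mean of 3 smooth muscle markers was 0.23 and 0.11 in these RNAs, inside or above the range of -0.34 to 0.21 in the others. Fibroblast markers, 8 of 12 kept, stayed between -0.11 and 0.23 in all 9 RNAs. Pericyte markers, 7 of 7 kept, ran from -0.32 to 0.24, and endothelial markers, 8 of 12 kept, from -0.73 to 0.42, with the lowest values in the same pair of RNAs. Macrophage markers, 9 of 12 kept, ran from -0.58 to 0.50. The part of these cell markers in the matrix values was not tested.

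Acan and Col2a1, which cartilage expresses strongly, were higher in 1 RNA than in the others. Acan and Col2a1 measured 8.19 and 8.27 in the second Ang1 RNA on array A and at most 6.81 and 7.36 in the other 8 RNAs, and on array B Col2a1 measured 9.57 there and at most 7.52 elsewhere. Other genes known from cartilage did not all share this pattern, and the probe sets of Col11a1, a member, disagreed. On array B Col11a1 was lowest of the 9 RNAs in this one, at 8.83. On array A its probe sets were too dim to be kept. There 1 measured 5.79 in this RNA and 4.09 to 4.94 in the other 8. Another measured 5.87 in it, 6.60 in untreated replicate 2 and 4.80 to 5.69 in the other 7. Comp measured 6.37 in this RNA, 7.20 in untreated replicate 2 and 8.34 to 9.81 in the other 7. The source of these signals was not tested. The other chondro-osteogenic markers of the list of 8 were not kept on array A. Of the remaining lists, 1 of 6 adipocyte markers (Fabp4), 2 of 6 Schwann cell markers (S100b, Ncam1) and 2 of 6 mesothelial markers (Msln, Krt8) were kept on array A.

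Single markers with an unadjusted p under 0.05 were few. Tpm2, a smooth muscle tropomyosin gene, differed by -0.74 ± 0.29 after VEGF (adjusted p = 1.00, limma), at 11.07, 10.96 and 11.71 against 12.04, 11.54 and 12.38 in untreated rings, so that 1 VEGF value lay inside the untreated range. Emcn, an endothelial sialomucin gene, measured 6.44, 6.66 and 6.77 in untreated rings and 7.57, 7.47 and 7.57 after VEGF, a difference of 0.91 ± 0.26 (adjusted p = 1.00, limma). After Ang1 Erg on array A (1.13 ± 0.50, adjusted p = 0.953) and the macrophage scavenger receptor gene Cd163 on array B (1.15 ± 0.37, adjusted p = 0.466) were in this class in limma. A second Erg probe set, on array B, gave -0.82 ± 0.47.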

How the data were processed

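RNA from 9 ring cultures was measured on 18 arrays of 2 types. The deposited values are linear intensities, for which the submitters' processing notes name MAS5, its version not given in the sources used here. Their trimmed mean (2% off each end) was 94.79 on the array B of Ang1 replicate 3 and 250.0 to 250.1 on the other 17 arrays. Labelling was described as a 2-cycle procedure for untreated replicate 1 only.

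Intensities were turned into log2(signal + 16) and quantile normalised within an array type, and 57 control probe sets per type were left out. Probe sets at or above the 40th percentile of mean signal were kept (9520 of 15866 on array A, 9166 of 15276 on array B). With the controls the arrays held 15923 and 15333. Symbols came from the platform annotation, updated through gene IDs, and 12789 probe sets of array A carried 1 symbol, 312 several and 2822 none, with 7570, 100 and 7663 on array B. Groups were compared with limma 3.58.1 in R 4.3.3, in 1 model over 9 arrays per type with an intensity trend and Benjamini-Hochberg adjustment at 0.05. The fit was also run on simulated data, with independent noise of equal spread in all arrays. Such data hold neither RNAs that stand apart nor shared animals, so that run cannot show how these affect the fit. The number of arrays limits the precision, and an exact test of 3 against 3 cannot go below p = 0.1.

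Every member is named. Values per RNA are given for Col1a1, Col1a2, Col3a1, Eln, Fn1, Fbn1, Bgn, Dcn, Vcan, Tnc, Thbs1 and Postn where measured, for members whose groups did not overlap at an unadjusted p under 0.05, and for the 3 largest differences in each direction against untreated rings on array A. Those of other members were added after their values were seen. Members and lists were chosen with earlier results of these data known. Same-numbered RNAs deviated together on array A with correlations of 0.14 to 0.41 for untreated and VEGF and 0.34 to 0.49 for untreated and Ang1, but of -0.15 to 0.23 for VEGF and Ang1. A fit with the replicate number as a block was run beside the one without it, among 19 alternatives.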

Additional observations from a re-analysis of the deposited data

How the results depend on the processing

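With the reported settings 0 probe sets passed the adjusted threshold in each comparison (limma), and likewise with the alternatives other than those named here. Array weights gave Ang1 replicate 2 the lowest weight on both array types. On array A the weights were 0.131 for it, 0.303 for untreated replicate 2 and 0.379 for VEGF replicate 3. The remaining RNAs had 1.28 to 5.16, the highest being Ang1 replicate 1. With array weights 6 probe sets passed for Ang1 against untreated and 24 for VEGF against Ang1 on array A, where array B had 2 and 8. Of these, 1 was a member, the second brightest Ogn probe set in VEGF against Ang1 (1.51 ± 0.22, adjusted p = 0.0293, limma), whose adjusted p under the other alternatives ran from 0.688 to 1.00. The mean of all probe sets of a gene gave 1 call for VEGF against Ang1 on array B. Emilin1 in VEGF against Ang1 turned from 1.09 to -0.45 ± 0.39 with array weights. Of 2214 refitted member differences 229 changed sign, 1 of them by more than its SE in both fits. The cause was not tested.

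Centring arrays on their median moved the median difference of all probe sets to -0.23 (array A) and -0.197 (array B) for Ang1 against untreated. The members' median then was -0.49 and -0.59, and their Ang1 score on array B -0.29. Leaving out 1 RNA at a time, the members' median ran from -0.07 to 0.11 for VEGF, -0.19 to 0.06 for Ang1 and -0.01 to 0.17 for VEGF against Ang1 on array A. On array B it ran from -0.22 to 0.19, -0.28 to 0.11 and -0.11 to 0.18. No member passed the threshold in any of these fits.

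The replicate block changed no call. Probe sets at an unadjusted p under 0.05 on array A numbered 294, 415 and 408 with the block for VEGF, Ang1 and VEGF against Ang1, against 157, 302 and 189 without it. On array B they were 98, 979 and 887 against 66, 960 and 777. Those counts depended on single RNAs: leaving out 1 at a time gave 86 to 369, 193 to 580 and 118 to 567 for array A, with 42 to 161, 591 to 1694 and 358 to 1569 for array B. With array weights they were 801, 1134 and 1740 on array A. Signal near background limits the dim probe sets, and 7 member probe sets were not kept.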
